A study of Mus musculus with 2 samples.

Results

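Semaphorins, plexins and neuropilins were compared between mouse peritoneal macrophages elicited by thioglycollate and macrophages resident in the untreated cavity. The genes were chosen by name: every probe set that the platform annotation assigns to a single gene whose current symbol is Sema followed by a digit, begins with Plxn, or is Nrp1 or Nrp2. This gave 79 of the array's 45101 probe sets, which name 32 of 18193 genes: 20 semaphorins, 9 plexins, 2 neuropilins and Plxna4os1, an antisense RNA of the Plxna4 locus. The elicited array held RNA of peritoneal macrophages from C57BL/6J mice collected 3 days after 1 mL of 3% thioglycollate was injected into the cavity, a broth that draws leukocytes in without infection. The resident array held RNA of peritoneal macrophages from untreated C57BL/6J mice. Mice of both groups were 8 weeks old, and cells adhered to a dish for 2 h before the rest were washed away, per the labels' protocols, while the series design text speaks of overnight culture. Enrichment was by adherence alone, and the number of mice per array is not stated in the labels. Each group had 1 array, so values carry no replicate error, and differences are described without a test.

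Semaphorins are secreted or membrane-bound ligands first known for steering axons. Plexins are their receptors: large transmembrane proteins whose cytoplasmic part switches off small GTPases of the R-Ras and Rap kind and so loosens adhesion and remodels actin. Neuropilins lack a signalling domain of their own and serve as coreceptors, mainly for the secreted class 3 semaphorins and for vascular endothelial growth factors. In the immune system these proteins act on migration of myeloid cells, on contacts between dendritic cells and T cells and on B cell activation.

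The receptors split by family member. Nrp1, Plxna1 and Plxnc1 were more than 2-fold higher on the elicited array, Plxnb2 was 2.04-fold lower, and Nrp2 and Plxnd1 had nearly the same signal on both. Among the ligands, Sema4d was 2.19-fold higher, Sema3c 3.22-fold lower and Sema4b 2.27-fold lower on the elicited array, and Sema4a was 1.94-fold lower, just short of the 2-fold threshold. Signals were read against a floor of 82.2, the 95th percentile of gene families that should be silent in macrophages, such as odorant and taste receptors. Each gene is given by its brightest probe set, and a signal at or under the floor was raised to it, so that a ratio against it is a bound. By that measure all 9 plexins and both neuropilins exceeded the floor on an array or both, against 9 of 20 semaphorins, and the antisense RNA was above it on the resident array.

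**Figure D1:**
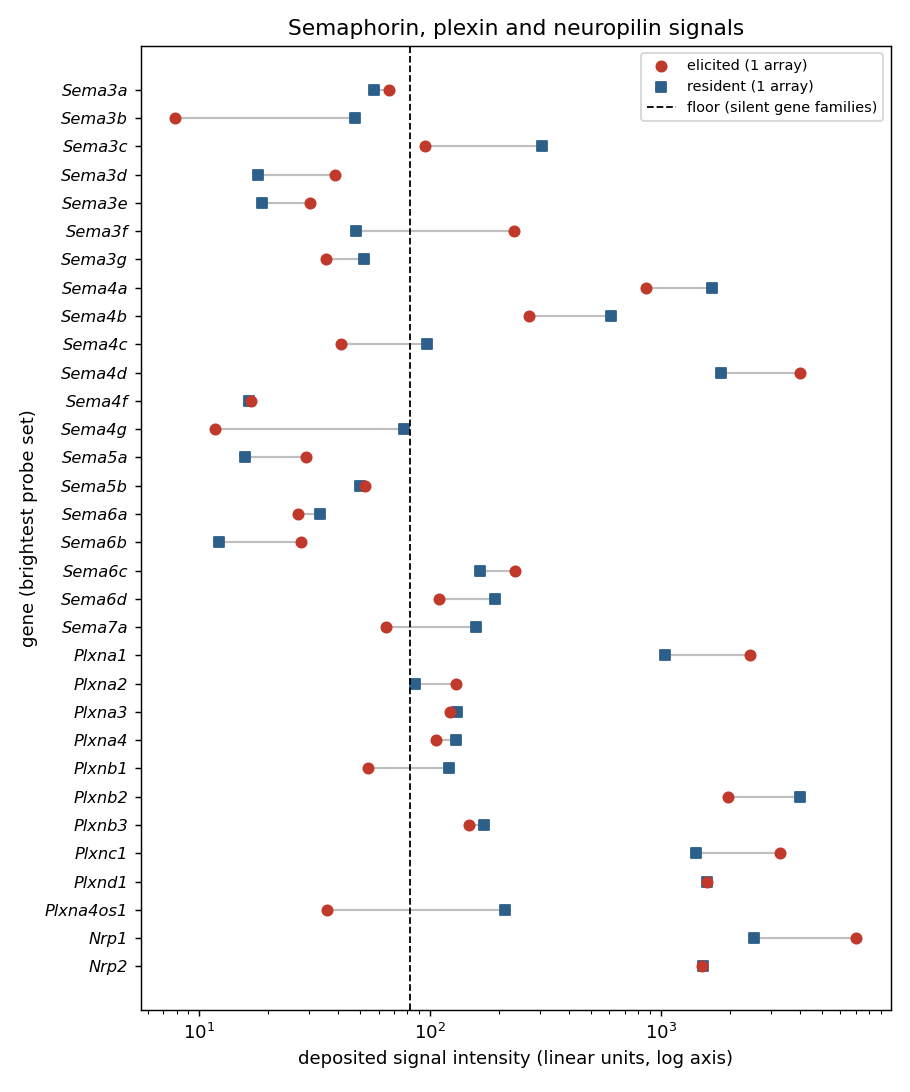
Deposited signal (linear units, log axis) of the brightest probe set of each of the 32 genes, with the elicited array as red circles, the resident array as blue squares and the floor of 82.2 as a dashed line; each point is 1 array and has no error. The gaps for Nrp1, Plxna1, Plxnc1 and Sema4d point to higher signal on the elicited array, those for Plxnb2, Sema4a, Sema4b and Sema3c to lower signal, and 11 semaphorins lie below the floor on both arrays.

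Nrp1, a coreceptor for class 3 semaphorins and for vascular endothelial growth factor, had a signal of 7055 on the elicited array, against 2545 on the resident array. This is 2.77-fold higher, a log2 ratio of 1.47. Other probe sets of Nrp1 read 4119 on the elicited and 1669 on the resident array (2.47-fold higher) and 2869 on the elicited and 1194 on the resident array (2.40-fold higher). The fourth read 582 on the elicited and 568 on the resident array, a log2 ratio of 0.04, so 3 of 4 probe sets of Nrp1 showed the difference.

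Nrp2, the second neuropilin, gave no such difference: its brightest probe set had 1513 on the elicited array, against 1534 on the resident array, a log2 ratio of -0.02. A second probe set had 709 on the elicited array against 791 on the resident array (log2 ratio -0.16), and another had 1499 on the elicited array against 1209 on the resident array (log2 ratio 0.31). The dimmest had 80.3 on the elicited array, just under the floor, against 152 on the resident array, a log2 ratio of -0.89 at the floor. The Nrp2 probe sets thus pointed both ways, and the brightest stayed within 2-fold.

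Plexin A1, which pairs with neuropilins to transduce class 3 semaphorins and binds Sema6d directly, was higher on the elicited array. The signal of Plxna1 was 2449 on the elicited array, against 1044 on the resident array (2.35-fold higher). A dim probe set of the same gene read 148 on the elicited array, against 77.3, under the floor, on the resident array (at least 1.81-fold higher). The other type A plexins were near the floor on both arrays. Plxna2 had 130 on the elicited and 86.2 on the resident array, Plxna3 had 123 on the elicited and 131 on the resident array, and Plxna4 had 107 on the elicited and 130 on the resident array. None of these was 2-fold apart, and the resident signal of Plxna2 did not reach 92.7, the 95th percentile of the silent families when the resident array is taken alone.

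Plxnc1 encodes the receptor of Sema7a and was read by 6 probe sets, 5 of them above the floor on both arrays. The brightest had 3297 on the elicited array, against 1423 on the resident array (2.32-fold higher). The next had 2810 on the elicited and 1160 on the resident array (2.42-fold higher), and over the 5 probe sets the log2 ratio ran from 0.71 to 1.28. All 5 were higher on the elicited array, with an SD of 0.22 between them. Probe sets of a gene read the same RNA on the same arrays and are not replicates of the condition.

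Plxnb2, a receptor of class 4 semaphorins that macrophages carry, went the other way, with 1965 on the elicited array against 4008 on the resident array (2.04-fold lower, 1 probe set). Plxnb1, the high-affinity receptor of Sema4d, had 53.8 on the elicited array, under the floor, against 121 on the resident array, which is at least 1.47-fold lower. Plxnb3 had 148 on the elicited and 172 on the resident array. Of the B plexins, Plxnb2 was therefore the one with a signal well above the floor on both arrays. Plxnd1, the receptor of Sema3e and a partner of Sema4a, had 1594 on the elicited and 1586 on the resident array, a log2 ratio of 0.01.

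Plxna4os1 had 35.9 on the elicited array, under the floor, against 212 on the resident array, at least 2.58-fold lower. Plxna4 itself had a log2 ratio of -0.29. Both signals are dim, and the antisense RNA was read by a single probe set.

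Promoters are shown for the genes at least 2-fold apart and above the floor on both arrays for which RefSeq lists a single start, namely Nrp1 and Plxnc1, higher on the elicited array, and Sema3c, lower on it. Each runs from 250 bases before to 50 after the RefSeq start (GRCm38.p6), 5′ to 3′ on the gene's strand. Capitals mark GAGGAA on either strand, the purine-rich core bound by PU.1, the transcription factor of the myeloid lineage. The windows are chr8:128358823-128359122 on the plus strand for Nrp1, chr10:94944796-94945095 on the minus strand for Plxnc1 and chr5:17574566-17574865 on the plus strand for Sema3c.
Nrp1: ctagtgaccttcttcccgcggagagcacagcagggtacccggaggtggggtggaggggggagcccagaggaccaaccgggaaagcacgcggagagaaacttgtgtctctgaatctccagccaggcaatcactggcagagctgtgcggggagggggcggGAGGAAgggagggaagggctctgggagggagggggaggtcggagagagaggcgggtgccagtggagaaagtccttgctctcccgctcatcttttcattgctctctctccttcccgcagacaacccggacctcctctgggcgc
Plxnc1: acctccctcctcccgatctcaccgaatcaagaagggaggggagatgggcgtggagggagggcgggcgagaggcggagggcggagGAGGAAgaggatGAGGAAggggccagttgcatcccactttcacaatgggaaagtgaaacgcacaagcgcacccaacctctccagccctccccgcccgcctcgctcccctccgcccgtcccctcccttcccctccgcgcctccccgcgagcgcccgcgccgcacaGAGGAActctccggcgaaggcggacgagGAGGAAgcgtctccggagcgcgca
Sema3c: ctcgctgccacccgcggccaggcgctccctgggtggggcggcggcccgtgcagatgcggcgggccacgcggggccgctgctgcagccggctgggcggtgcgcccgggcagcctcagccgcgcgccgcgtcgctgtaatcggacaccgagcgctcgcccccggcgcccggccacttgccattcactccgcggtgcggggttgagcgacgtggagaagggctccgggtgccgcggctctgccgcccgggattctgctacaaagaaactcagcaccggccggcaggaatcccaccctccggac
The Plxnc1 window holds 4 matches, the Nrp1 window 1 and the Sema3c window 0. The genes with several starts broke this split by direction. Sema4b, lower on the elicited array, holds 1 match in each of its 2 windows. Sema4d, higher on it, holds 0 in its 3 windows, and Plxnb2, lower on it, holds 0 in its 2. Plxna1, also higher, has no window listed. Over all 32851 RefSeq promoter windows of this length, 28.3% hold GAGGAA on either strand. Among the 37 windows of the 26 semaphorin, plexin and neuropilin genes that the table lists, 12 did (32.4%). The GC box GGGCGG, on either strand, was in 27 of these 37 windows (73.0%), against 35.7% of all windows, and the TATA box TATAAA was in 0 of 37, against 13.6% of all windows. The windows of a gene can overlap or share sequence, and a match describes letters, not binding.

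Sema4d, a membrane semaphorin of leukocytes that is shed by proteases and binds plexin B1, plexin B2 and the B cell surface protein Cd72, was higher after elicitation. Its signal was 4010.1 on the elicited array, against 1832 on the resident array (2.19-fold higher). Its other probe sets were dim and above the floor on the elicited array alone, the brighter of them with 119 on the elicited and 35.5 on the resident array (at least 1.45-fold higher). All 3 probe sets had more signal on the elicited array.

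Sema4a, a membrane semaphorin of dendritic cells and macrophages that takes part in T cell priming, was lower on the elicited array. One probe set had 866 on the elicited array against 1678 on the resident array (1.94-fold lower), and the other 499 on the elicited array against 1462 on the resident array (2.93-fold lower). The brighter one carries a suffix (_x_at) by which the array maker marks probes that can bind other transcripts. Sema4a thus lay on either side of 2-fold depending on the probe set, with the same direction in both.

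Sema4b, another membrane semaphorin of class 4, had 269.6 on the elicited array against 611 on the resident array, 2.27-fold lower. Its dimmer probe set had 72.0 on the elicited array, under the floor, against 151 on the resident array, at least 1.84-fold lower. Sema4c had 41.4 on the elicited array, under the floor, against 97.4 on the resident array. With 1.19-fold as its bound, Sema4c could not be placed on either side of 2-fold.

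Sema3c, a secreted ligand of neuropilins, had 95.1 on the elicited array, barely above the floor, against 307 on the resident array (3.22-fold lower). Its second probe set was at or under the floor on both arrays. Sema3f, another secreted ligand, prefers Nrp2 and had 231 on the elicited array, against 48.0, under the floor, on the resident array, at least 2.81-fold higher. The bound is 2.49-fold against the resident array's own 92.7. That value comes from an _x_at probe set, and the other 2 probe sets of Sema3f were at or under the floor on both arrays. The direction of Sema3f therefore rests on 1 probe set of uncertain specificity.

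Sema7a, a lipid-anchored ligand of plexin C1 and of beta-1 integrins, had 64.9 on the elicited array, under the floor, against 159 on the resident array, at least 1.94-fold lower. Sema6d, a ligand of plexin A1, had 109.9 on the elicited array against 192 on the resident array, 1.75-fold lower. Sema6c had 234 on the elicited array against 164 on the resident array, 1.43-fold higher. Each of these values rests on 1 probe set, of 2 for Sema7a, 4 for Sema6d and 3 for Sema6c. The other probe sets of the genes were under the floor on both arrays. For the pair of Plxnc1 and Sema7a, the receptor was higher and the ligand lower on the elicited array, and the same held for Plxna1 and Sema6d, although Sema6d was within 2-fold and the bound of Sema7a leaves its side of the threshold unknown. Other pairs differed. Sema4d was 2.19-fold higher, while its receptors Plxnb2 (2.04-fold) and Plxnb1 (at least 1.47-fold) were lower. Sema3f was at least 2.81-fold higher, while Nrp2 had nearly the same signal on both arrays.

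The remaining 11 semaphorins stayed under the floor on both arrays by their brightest probe set: Sema3a, Sema3b, Sema3d, Sema3e, Sema3g, Sema4f, Sema4g, Sema5a, Sema5b, Sema6a and Sema6b. Their signals ran from 7.86 to 66.3 on the elicited array, against 12.2 to 77.1 on the resident array. The highest of these was Sema4g on the resident array. A further probe set of Sema3a, the secreted ligand of Nrp1 and plexins of type A, had 90.5 on the elicited array, against 1.85 on the resident array, a bound of 0.14 in log2 ratio at the floor. No ratio can be given for the rest at this signal.

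**Figure D2:**
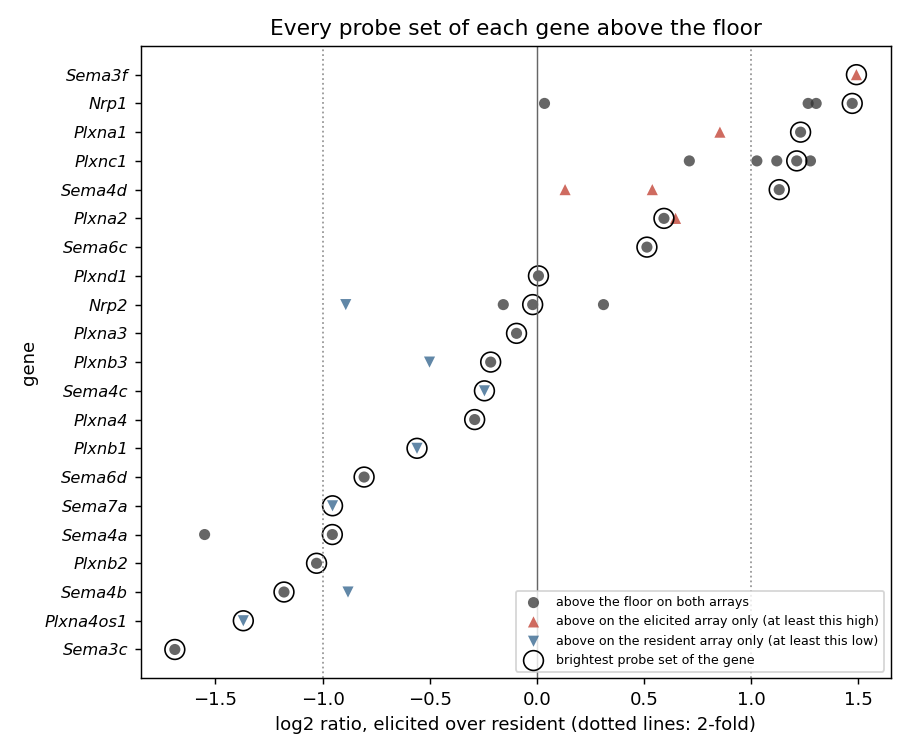
Log2 ratio of elicited over resident signal for every probe set above the floor on at least 1 array, by gene; dots are above the floor on both arrays, triangles are bounds, circles ring the brightest probe set and dotted lines mark 2-fold. The 5 Plxnc1 dots lie together between 0.71 and 1.28, whereas 1 of 4 Nrp1 probe sets lies at 0.04.

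In all, 21 of the 32 genes exceeded the floor, 16 of them on both arrays. Of the 21, elicited signal was at least 2-fold higher for 5 (23.8%), against a background of 8.04% of all 11499 genes above the floor. It was at least 2-fold lower for 4 (19.0%), against a background of 11.8%. The other 12 lay within 2-fold, but 3 of these (Plxnb1, Sema4c and Sema7a) are bounds whose true ratio can be larger. With bounds held at their value, none of the 21 was 4-fold apart in either direction, as 1.77% of all genes were upward and 2.75% downward. The true ratios of the bounds can be larger, so whether Sema3f (at least 2.81-fold higher) and Plxna4os1 (at least 2.58-fold lower) pass 4-fold is unknown. Of the 16 genes that exceeded the floor on both arrays, 4 passed 2-fold upward (7.56% of all genes of that kind) and 3 downward (11.1%).

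The members had no common direction. Their median log2 ratio was -0.22, beside -0.03 for all genes, with bounds held at their value. The median size of the log2 ratio, without its sign, was 0.95 for the 21 genes, beside 0.47 for all genes. The 9 semaphorins above the floor had a median log2 ratio of -0.81 and the 9 plexins one of -0.10. Plxnb2 (log2 ratio -1.03) lay just past the 2-fold threshold and Sema4a (-0.95) just short of it. The SD of the log2 ratio between probe sets of the same gene was 0.48 over 4465 genes, so the distance of either from the threshold was smaller than that spread. The same held for Sema4d (1.13), Sema4b (-1.18), Plxnc1 (1.21), Plxna1 (1.23) and Nrp1 (1.47), and for the bound of Plxna4os1 (-1.37). Of the genes called 2-fold apart, only Sema3c (-1.69) and the bound of Sema3f (1.49) lay farther past the threshold than that spread.

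**Figure D3:**
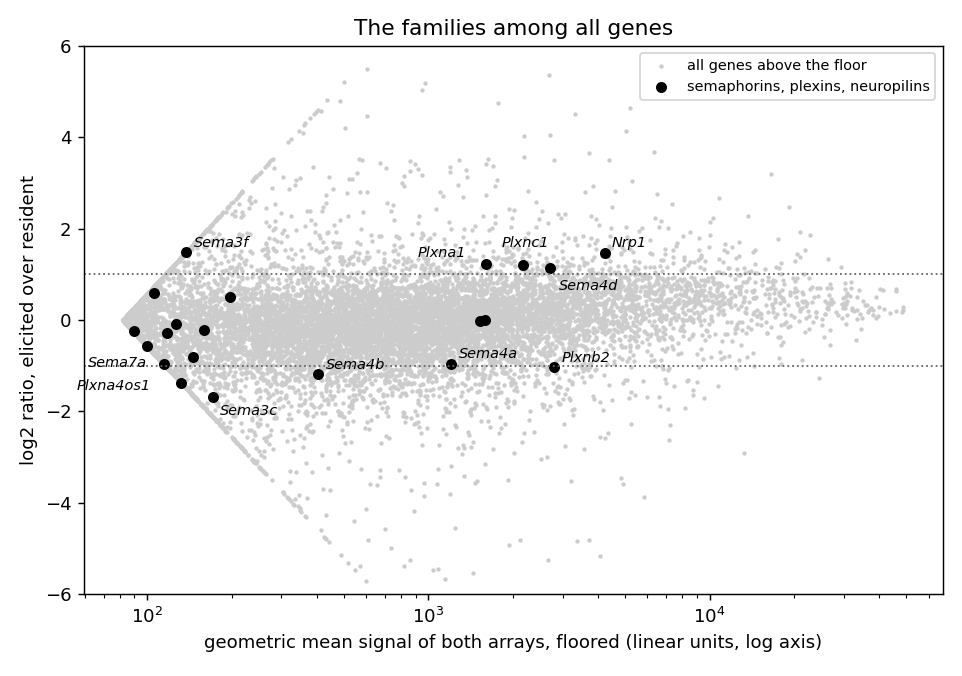
Log2 ratio of elicited over resident signal against the geometric mean signal (floored, log axis) for all 11499 genes above the floor (grey) and the 21 semaphorin, plexin and neuropilin genes (black); dotted lines mark 2-fold, and 5 genes lie outside the vertical range. Nrp1, Sema4d, Plxnc1 and Plxna1 lie above the upper line among the brighter genes, and the diagonal edges hold genes at the floor on 1 array.

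Genes that act with these receptors were taken from 5 lists holding 82 genes, of which 65 exceeded the floor. Of these, 3 passed 2-fold upward (4.62%) and 7 downward (10.8%), against backgrounds of 8.04% and 11.8% of all genes. Among coreceptors and other binding partners, 2 of 13 passed 2-fold upward and 0 downward (median log2 ratio 0.40). Trem2, a lipid receptor that forms a complex with plexin A1 in mouse dendritic cells and osteoclasts, had 29924 on the elicited array against 6207 on the resident array (4.82-fold higher). Tyrobp, the adaptor of that complex, was 1.42-fold higher. L1cam, an adhesion molecule that joins neuropilin 1 in neurons, had 270.0 on the elicited array against 115 on the resident array, 2.36-fold higher. Cd72, the Sema4d receptor of B cells, was 1.96-fold lower on the elicited array. Kdr, the endothelial growth factor receptor that works with neuropilin 1, was above the floor on the elicited array alone (at least 1.76-fold higher).

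Other ligands of neuropilins had a median log2 ratio of 0.51, with 1 of 8 at least 2-fold higher and 0 lower. The count higher was 4 with equal medians (14.2% of all genes), 3 with quantile normalization (11.1%) and 2 with loess (9.78%). The gene higher on the deposited scale was Vegfc, the lymphatic growth factor and a ligand of neuropilin 2, with 305 on the elicited array, against 6.48, under the floor, on the resident array (at least 3.71-fold higher). All 3 of its probe sets above the floor had log2 ratios of at least 1.52. Vegfb was 1.93-fold and Pdgfa 1.80-fold higher, both within the threshold. Vegfd was at least 1.73-fold higher, a bound that leaves its side of the threshold unknown.

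Of the GTPases and exchange factors downstream of plexins, 18 exceeded the floor. On the deposited scale 0 of these passed 2-fold upward, against a background of 8.04%, and 5 downward (27.8%), against 11.8% (median log2 ratio -0.42, beside -0.03 for all genes). The counts were 1 upward and 3 downward with equal medians, beside 14.2% and 7.4% of all genes. They were the same with quantile normalization, beside 11.1% and 8% of all genes. With loess they were 1 and 4, beside 9.78% and 8.85%, and on the hybridisation controls 0 and 6, beside 5.06% and 18.4%. Sh3bp1, a GTPase-activating protein that mediates plexin D1 signals, had 259 on the elicited array against 1043 on the resident array (4.02-fold lower). Arhgef12, an exchange factor that binds B plexins, had 859 on the elicited array against 2564 on the resident array (2.98-fold lower), with 4 probe sets from -1.64 to -1.21 in log2 ratio. Rras, a substrate of the plexin GTPase-activating domain, had 1229 on the elicited array against 3413 on the resident array (2.78-fold lower). The other Ras and Rap genes of the list were within 2-fold: Rras2 (log2 ratio -0.44), Mras (0.46), Rap1a (-0.08) and Rap1b (0.41). Tiam1, a Rac exchange factor, was 2.44-fold lower and Arhgap35, a GTPase-activating protein, at least 2.06-fold lower.

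Of 18 genes of the MICAL and CRMP proteins, kinases and actin regulators, 2 were at least 2-fold lower and 0 higher (median log2 ratio -0.04). With equal medians 0 were lower and 2 higher, beside 7.4% and 14.2% of all genes. On the hybridisation controls 6 were lower, beside 18.4% of all genes. The lower genes on the deposited scale were Limk1, a kinase of cofilin (2.03-fold lower), and Mical3, a flavoprotein of the MICAL family (at least 2.04-fold lower). Cfl1, which encodes cofilin, was 1.88-fold higher, and the kinase gene Fer was 1.73-fold lower. Of 8 proteases, some of which shed semaphorins or their receptors, 0 passed 2-fold (median log2 ratio 0.14), but 2 are bounds whose true ratio can be larger. Bace1 was 1.77-fold and Adamts1 at least 1.64-fold higher, Pcsk6 was at least 1.36-fold higher and Mmp14, a protease that releases Sema4d from human tumour cells, had 2573 on the elicited and 3864 on the resident array. The resident signal of Bace1 was 83.9, barely above the floor. Its 3 probe sets above the floor ran from -0.18 to 0.82 in log2 ratio and thus pointed both ways.

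**Figure D4:**
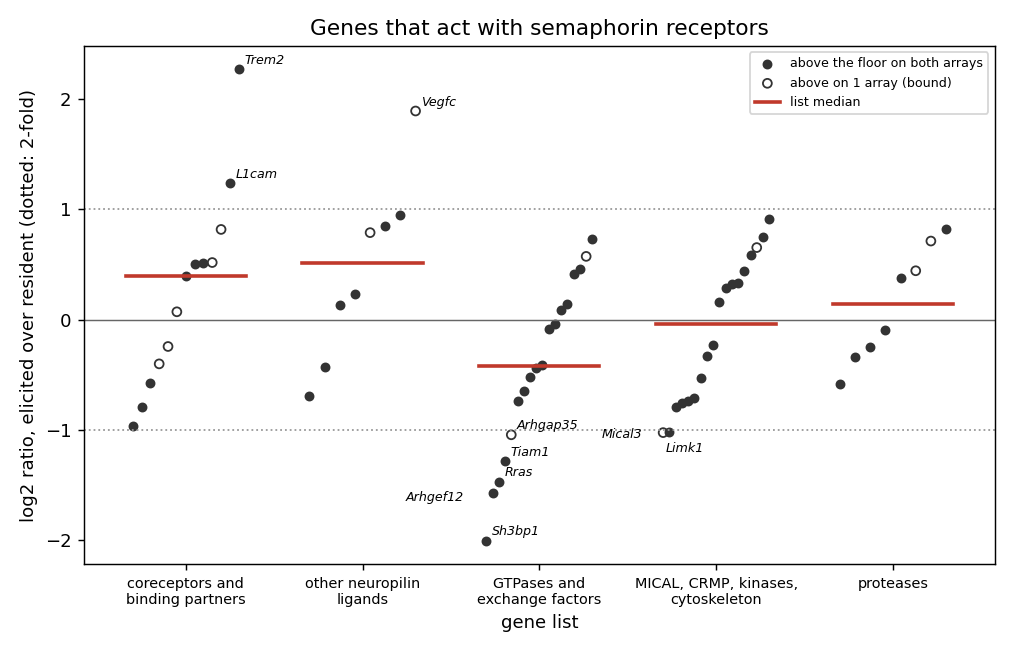
Log2 ratio of elicited over resident signal for the genes above the floor in each of 5 lists of genes that act with semaphorin receptors; filled points are above the floor on both arrays, open points are bounds, red bars are list medians and dotted lines mark 2-fold. The 5 labelled genes below the lower line among GTPases and exchange factors include Sh3bp1 and Arhgef12, and Trem2 stands highest among binding partners.

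Macrophage markers were present on both arrays, with 9 of 9 measured pan-macrophage genes above the floor on each and a summed signal of 141505 on the elicited and 145244 on the resident array. Of these 9, 1 was at least 2-fold higher (Fcgr1, 2.55-fold) and 2 at least 2-fold lower (Itgam, 2.99-fold, and Cd14, 2.73-fold). Markers of resident large peritoneal macrophages summed to 6606 on the elicited and 124973 on the resident array, with 10 of 11 past 2-fold downward. Markers of other cells differed too. The B cell list had 9 of 11 measured markers past 2-fold downward, with a summed signal of 961 on the elicited and 23933 on the resident array. Under the floor on the elicited array were 5 of these, Cd79a among them. Dendritic cell markers summed to 384 on the elicited and 3081 on the resident array, with 8 of 8 at or under the floor on the elicited array. Of these 8, 3 (Flt3, Xcr1 and Itgae) were under the floor on the resident array too. The largest part of the resident dendritic cell sum was Btla, with 77.5 on the elicited and 1474 on the resident array. Mast cell markers summed to 161 on the elicited and 2589.8 on the resident array, with 8 of 8 at or under the floor on the elicited array. T cell markers summed to 642 on the elicited and 1463 on the resident array, with 3 of 6 markers above the floor past 2-fold downward (Cd3d, Cd3g and Cd2, under the floor on the elicited array) and Cd28 2.87-fold higher. Mesothelial and fibroblast markers summed to 16603 on the elicited and 833 on the resident array, with 8 of 12 at least 2-fold higher, and 10 of 14 at or under the floor on the resident array. Endothelial markers summed to 1804 on the elicited and 638 on the resident array, most of the elicited sum from Vwf, with 1276 on the elicited array against 76.0, under the floor, on the resident array (at least 15.5-fold higher). Kdr and Esam exceeded the floor on the elicited array alone, Pecam1 and Cldn5 on the resident array alone, and Cdh5, Tek and Tie1 on neither. Monocyte markers summed to 26111 on the elicited and 67770.0 on the resident array, with 4 of 8 past 2-fold downward, such as Plac8 (23.4-fold) and Hp (12.0-fold), and Chil3 3.14-fold higher. Most of both monocyte sums came from Fn1, with 15810 on the elicited and 38130 on the resident array (2.41-fold lower). Ccr2 was 1.35-fold lower, and its 4 probe sets above the floor ran from -1.52 to 0.29 in log2 ratio. Neutrophil markers summed to 8647 on the elicited and 13413 on the resident array, with 3 of 4 above the floor past 2-fold downward, and 6 of 10 at or under the floor on both arrays. The largest part of the elicited sum was S100a8, with 4675 on the elicited and 3663 on the resident array (1.28-fold higher). Platelet markers summed to 15855 on the elicited and 20935 on the resident array (1 of 5 past 2-fold, downward), and eosinophil markers to 1145 on the elicited and 543.0 on the resident array (1 of 2 past 2-fold, upward). Most of the platelet sums came from Pf4, with 15376 on the elicited and 19904 on the resident array (1.29-fold lower). Most of the eosinophil sums came from Siglecf, with 1014 on the elicited and 322 on the resident array. Epx, Prg2 and Ccr3 were under the floor on both arrays. The lower members, such as Sema4a, Sema4b and Sema3c, had the direction of the summed signal of the resident large macrophage, monocyte, neutrophil and platelet lists. They also had that of the B cell, T cell, dendritic cell and mast cell lists, and of the pan-macrophage list, whose sums differed little. The higher members, such as Nrp1, Plxna1 and Sema3f, had the direction of the mesothelial and fibroblast, endothelial and eosinophil lists. Such a shared direction does not place a member in any of these cell types. The part of these cells in the differences was not tested, and in a bulk sample fewer cells of a type and less RNA per cell cannot be told apart.

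The deposited scale sets where the members lie relative to 2-fold. The spiked hybridisation controls, spiked in at fixed amounts, read 1.23-fold brighter on the elicited array, in 9 of 9 probe sets. As deposited, 5 members passed 2-fold upward and 4 downward, and 40.5% of all genes past 2-fold were higher on the elicited array. With the medians of the 2 arrays made equal, the counts were 5 and 2, beside 14.2% and 7.4% of all genes, and the share of higher genes among all past 2-fold was 65.8%. After quantile normalization they were 6 and 3, beside 11.1% and 8% of all genes (share 58.1%). After a loess trend was removed they were 5 and 3, beside 9.78% and 8.85% of all genes (share 52.5%). Scaled on the hybridisation controls they were 2 and 7, beside 5.06% and 18.4% of all genes (share 21.6%). The all-gene median log2 ratio moved too: it was 0.25 for equal medians, 0.16 for quantile normalization, 0.09 for loess and -0.30 for the hybridisation controls. Over these 4 other scalings the log2 ratio of Nrp1 stayed between 1.17 and 1.78 and that of Sema3c between -1.97 and -1.17, past 2-fold throughout, as were the bounds of Sema3f and Plxna4os1. With the floor raised to 174, the 99th percentile of the silent families, Sema3c, Sema3f and Plxna4os1 were no longer past 2-fold: the bounds were -0.81 for Sema3c, 0.41 for Sema3f and -0.28 for Plxna4os1. Plxna1 (0.93), Plxnc1 (0.91) and Sema4d (0.83) were under 2-fold on the hybridisation controls alone. Plxnb2 (-0.72) was within 2-fold with equal medians, and Sema4b, of these 4, passed 2-fold on the hybridisation controls alone, with -0.87 with equal medians, -0.80 with quantile normalization and -0.81 with loess. None of the 9 genes called 2-fold apart changed sign under any of the 4.

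**Figure D5:**
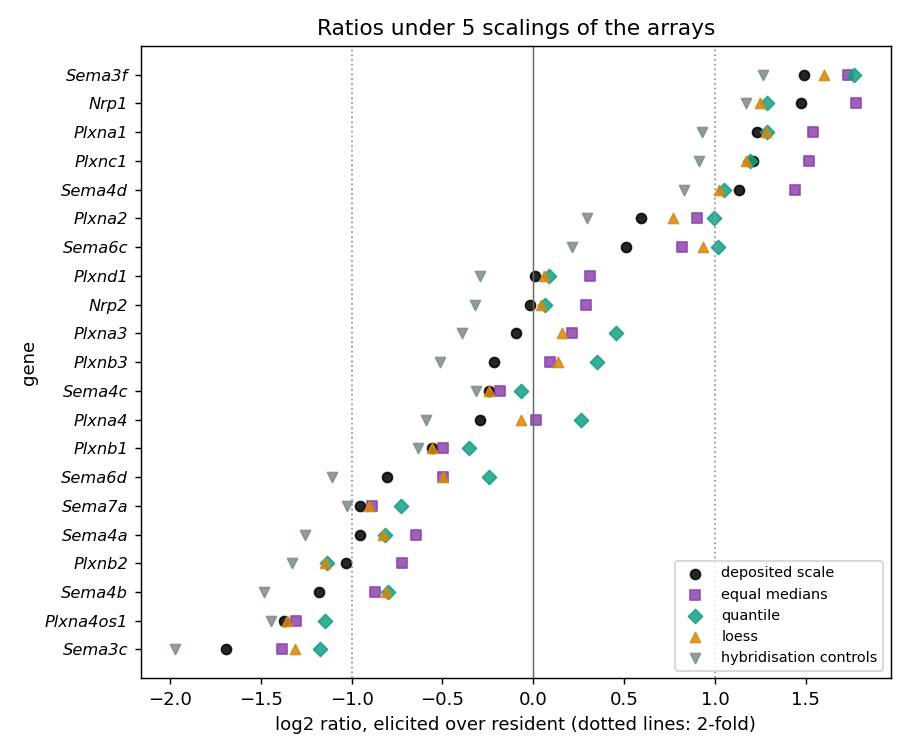
Log2 ratio of elicited over resident signal of the 21 genes above the floor under the deposited scale and 4 other scalings of the arrays; each marker is 1 scaling and dotted lines mark 2-fold. Nrp1 and Sema3c stay past 2-fold under all 5, while Plxna3, Plxna4, Plxnb3, Nrp2 and Plxnd1 fall on both sides of 0.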

How the data were processed

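RNA was measured on 1 Affymetrix 3' array per group, with biotinylated cRNA from 100 ng of total RNA, per the labels' protocols. Values as deposited are linear signal intensities; per the submitters' processing notes the authors used MAS5, with version, scaling target and detection calls not given in the sources used here. Trimmed by 2% at each end, the mean was 500.004 on the elicited and 500.003 on the resident array. Of 45101 probe sets, 34958 name 1 gene, 932 several and 9211 none here; symbols were updated by gene ID to RefSeq (GRCm38.p6) for 34754. The floor of 82.2 came from 126 probe sets of odorant, vomeronasal and taste receptor and keratin-associated genes (252 values). Each gene is given by its probe set of highest mean log2 signal, compared as elicited minus resident against a 2-fold threshold, with no test, since each group has 1 array. The number of arrays limits the precision.

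The members and gene lists were chosen with earlier results of these data known. All members are named; in each of the 5 pathway lists up to 4 genes of largest absolute log2 ratio are named, and others to account for a count. Tyrobp, Rras2, Mras, Rap1a and Rap1b were named after their values were seen. Of the 82 list genes, 4 had no probe set naming them alone. Promoter sequences are RefSeq's, with 26 of 32 members listed. Calculations on the deposited, equal-median, quantile and loess scales were tested on simulated data, with 4-fold changes in genes well above the floor. The simulation did not cover the hybridisation-control scaling, changes near 2-fold or changes in genes near the floor. Calculations used Python 3.11.15, numpy 2.4.6 and pandas 2.3.3. Alternatives changed the scaling (loess span 0.4), the floor (99th percentile, 174; resident array alone, 92.7), a pseudocount of 1 or of the floor, the probe set, the filter on dim genes and the threshold.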

Additional observations from a re-analysis of the deposited data

How the results depend on the processing

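No paired analysis was possible because each group has 1 array. The count of semaphorin, plexin and neuropilin genes at least 2-fold higher (5) was 2 on the hybridisation controls, beside 5.06% of all genes. It was also 2 with the dimmest probe set above the floor, beside 6.72% of all genes. The count at least 2-fold lower (4) was 2 with equal medians, beside 7.4% of all genes, and 7 on the hybridisation controls, beside 18.4%. It was 2 with the floor at the 99th percentile (14 genes left above it), beside 10.9% of all genes. With a pseudocount of 1 it was 7, beside 15.1%, and with the floor added as pseudocount 2, beside 9.44%. With a threshold of 1.5-fold in place of 2-fold, 7 were lower, beside 23.1% of all genes. With 4-fold, and bounds held at their value, 0 were higher and 0 lower, beside 1.77% and 2.75% of all genes.

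Among the genes of the pathway lists, 3 were at least 2-fold higher as reported. Brackets hold the share of all genes. This count became 11 with equal medians (14.2%), 9 with quantile normalization (11.1%) and 5 with loess (9.78%). It was 1 with the floor at the 99th percentile (7.53%) and 10 with a pseudocount of 1 (10.3%). It was 5 with the floor added as pseudocount (7.01%), 14 at 1.5-fold (18.4%) and 1 at 4-fold (1.77%). The 7 lower became 3 with equal medians (7.4%), 14 on the hybridisation controls (18.4%) and 11 with the dimmest probe set (13.5%). At 1.5-fold they became 17 (23.1%) and at 4-fold 1 (2.75%). Of 329 other comparisons, over single members and single lists, 58 moved, by more than the probe-set spread for ratios and by more than 1.5 times for counts; no ratio of at least 2-fold changed sign. Fewer genes above a higher floor, and a stricter threshold, lower the counts by construction; the cause of the other shifts was not tested. Members near the floor are limited by signal over background.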
